A study of Mus musculus with 2 samples.

Results

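The numbered Zfp genes are the protein-coding genes of mouse whose symbol is Zfp followed by a number and at most 1 letter, here without *Zfp13* and *Zfp42*. In the GENCODE annotation of mm9, 363 of 22359 protein-coding genes were chosen by this rule, which used the symbol and no read count. They carry 359 symbols, since *Zfp319*, *Zfp664*, *Zfp708* and *Zfp738* are each listed under a pair of gene identifiers, and they lie on 20 chromosomes, with 87 on chromosome 7, 42 on chromosome 17 and 36 on chromosome 13. Zfp322a, the transcription factor that was precipitated, is the product of one of them.

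E14, a line of mouse ES cells kept with serum and LIF, gave the chromatin, which was immunoprecipitated with anti-ZNF322 antibody (Zfp322a ChIP) or with anti-Rabbit IgG antibody as the control. Both libraries come from untreated E14 cells, the labels give C57BL/6 as the background strain of both, and neither carries a knockdown or a transgene by its label. There was 1 library for each antibody, so the differences below have no replicate check, and the reads of a ChIP hold no marker by which the cell type could be tested. After removal of reads with a mapping quality under 25, the Zfp322a library held 4151151 of 5187475 reads and the IgG library 3877802 of 4843481.

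C2H2 zinc-finger proteins read DNA with arrays of short fingers, each of which folds around a zinc ion and contacts a few bases. In many of them the array is preceded by a KRAB domain, which recruits Trim28 (KAP1), and with it the histone methyltransferase Setdb1 and HP1 proteins, to silence the bound locus. The genes arose by repeated local duplication, so that they often lie in tandem clusters, and the fingers are usually encoded together in 1 long 3′ exon. In ES cells some members keep imprints methylated or silence retroviral sequences, and others are activators at promoters.

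By the pattern of cysteines and histidines in the annotated proteins, 346 of the 363 members had at least 1 C2H2 finger, with a median of 10 and a maximum of 37. Among the 17 without a match was *Zfp36*, whose product (tristetraprolin) has zinc fingers of the CCCH kind. A KRAB sequence pattern was found in 157 members. The pattern is strict, and members known as KRAB genes such as *Zfp445* did not match it, so the split below is one of the pattern and not of the whole KRAB family. In 289 members the last coding exon encodes at least 1 finger, and in 270 of them all the fingers of the protein. Neighbouring members at most 250 kb apart formed 25 clusters of at least 3, which together hold 169 members. The largest cluster holds 21 members between 67162106 and 67914753 on chromosome 13, and 17 of the 21 had the KRAB pattern.

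The sequences around the TSS are shown for the 5 called members with the highest lower bound of their fold at the promoter (defined with the counts below). Each runs 5′ to 3′ on the strand of the gene from 150 bases before the TSS to 29 after it, and capitals mark motif 1, the most frequent motif of the study for Zfp322a binding sites.
*Zfp592* promoter, mm9 chr7:88138448-88138627, plus strand: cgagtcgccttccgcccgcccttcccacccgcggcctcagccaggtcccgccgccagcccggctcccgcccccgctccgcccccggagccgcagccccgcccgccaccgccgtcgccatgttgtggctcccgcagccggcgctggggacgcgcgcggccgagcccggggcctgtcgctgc
*Zfp746* promoter, mm9 chr6:48036563-48036742, minus strand: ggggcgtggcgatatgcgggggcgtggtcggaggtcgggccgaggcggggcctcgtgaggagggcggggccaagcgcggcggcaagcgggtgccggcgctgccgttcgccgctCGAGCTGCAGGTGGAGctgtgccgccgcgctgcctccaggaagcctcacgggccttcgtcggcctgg
*Zfp113* promoter, mm9 chr5:138596943-138597122, minus strand: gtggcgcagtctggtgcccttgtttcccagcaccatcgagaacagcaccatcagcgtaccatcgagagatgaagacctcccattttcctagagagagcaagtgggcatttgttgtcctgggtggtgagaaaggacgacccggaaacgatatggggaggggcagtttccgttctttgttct
*Zfp36* promoter, mm9 chr7:29164245-29164424, minus strand: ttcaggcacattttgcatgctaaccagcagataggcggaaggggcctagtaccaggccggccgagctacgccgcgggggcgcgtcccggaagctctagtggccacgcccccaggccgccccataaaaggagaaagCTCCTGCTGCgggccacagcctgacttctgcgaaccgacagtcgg
*Zfp143* promoter, mm9 chr7:117205066-117205245, plus strand: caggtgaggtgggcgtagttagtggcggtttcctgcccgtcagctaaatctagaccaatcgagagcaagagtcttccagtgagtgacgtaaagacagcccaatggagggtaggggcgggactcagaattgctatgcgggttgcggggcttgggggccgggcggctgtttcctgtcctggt
The *Zfp592* stretch had a GC content of 82.8% with 29 CpG, and the *Zfp746* stretch 77.2% with 26 CpG. The *Zfp36* stretch had 65.0% and 15 CpG, the *Zfp143* stretch 58.9% and 10 CpG, and the *Zfp113* stretch 53.9% and 8 CpG. Counted from the TSS base as 0, motif 1 was present at -37 and -31 in *Zfp746*, as overlapping copies on the strand of the gene, and at -15 on the opposite strand in *Zfp36*. In the other 3 it did not occur in the letters shown, so the 5 stretches shared neither motif 1 nor a common base composition. Bases further from the TSS are not shown.

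Reads were counted by their 5′ end in -1000 to +1000 bp of the TSS. The fold is the ratio of Zfp322a to IgG reads after each is divided by the total of its library, and its 95% interval is the exact conditional binomial one. These intervals cover counting error only and compare these 2 libraries, not conditions. A promoter with at least 10 reads in both libraries together was tested, and it was called when the fold was at least 2 with a lower bound above 1, or the reverse for IgG. Of the 363 members, 285 could be tested and 78 had fewer reads, among them 15 with no read in either library.

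The promoters of the numbered Zfp genes held more Zfp322a than IgG reads. The median member had 13 Zfp322a and 9 IgG reads, against 11 and 8 over all coding genes. Over 358 distinct windows the members held 5130 Zfp322a and 3266 IgG reads, a fold of 1.47 (interval 1.40 to 1.53), against 1.39 (1.38 to 1.40) over the windows of the other coding genes. In 215 tested members the fold was above 1, and in 70 below 1. The median log2 fold of the tested members, with 1 read added to each count, was 0.49 against 0.43 over all coding genes tested. A total of 47 tested members (16.5%) were called higher in the Zfp322a library. The same rule called 2423 of 15956 tested promoters of coding genes, which is 15.2%, so the share of members called was near the background. Called members had folds from 2.01 to 5.92. By the exact test with Benjamini-Hochberg adjustment over all promoters tested, 11 members had an adjusted p under 0.05 and a fold above 1, against 4.23% of all promoters, which is 675 genes.

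**Figure D1:**
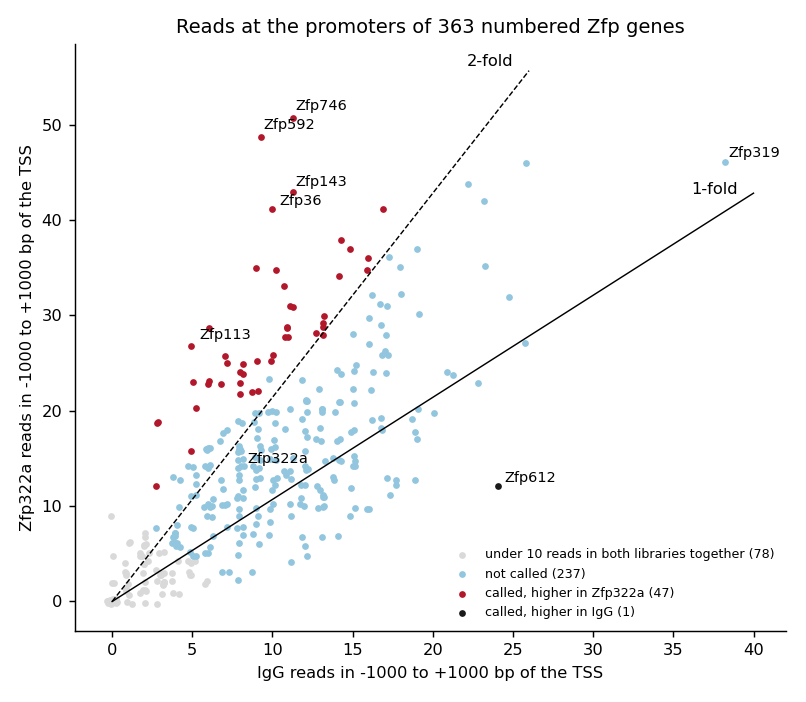
Zfp322a reads (vertical axis) against IgG reads (horizontal axis) in -1000 to +1000 bp of the TSS for each of the 363 numbered Zfp genes, 1 point a gene, with a small random offset to part equal counts. The solid line marks a fold of 1 and the dashed line a fold of 2 after scaling to library totals. The 47 called members lie above the dashed line, *Zfp592* and *Zfp746* are the furthest above it, and *Zfp612* alone was called for IgG.

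Around the TSS the excess was broad. In the 100 bp before the TSS the members held 499 Zfp322a and 294 IgG reads, and in the next 100 bp 497 and 285, folds of 1.59 and 1.63. In the other coding genes the folds in these bins were 1.62 and 1.62. From 200 to 299 bp after the TSS the members' fold was 1.78 (interval 1.53 to 2.08), whereas at 800 to 899 bp it was 1.09 (0.854 to 1.41). The IgG reads also peaked at the TSS, with 20.9 reads per 100 genes and 1000000 reads of the library in the 100 bp before the TSS and 6.39 in the bin from -700 to -601.

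**Figure D2:**
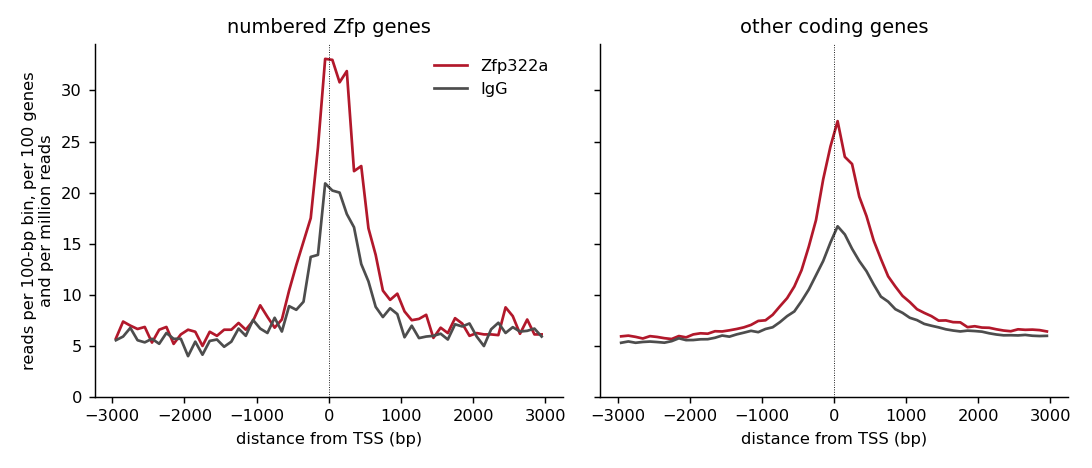
Reads per 100-bp bin, per 100 genes and per 1000000 reads of the library (vertical axis), by distance from the TSS in bp (horizontal axis), for the numbered Zfp genes and for the other coding genes, in the Zfp322a library (red) and the IgG library (grey). Both libraries peak at the TSS in both groups, with 33.1 Zfp322a and 20.9 IgG reads in the members just before the TSS and 24.5 and 15.1 in the other coding genes.

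The member with the highest lower bound was *Zfp592* on chromosome 7, whose product is known as a partner of Zmynd8, with 49 Zfp322a and 9 IgG reads. Its fold was 5.09 (interval 2.47 to 11.8), and the summit of the extended reads lay at -390 bp with a height of 26 against 4. *Zfp746* on chromosome 6 (PARIS, a repressor of Ppargc1a) had 51 and 11 reads, a fold of 4.33 (2.23 to 9.22). At both genes the Zfp322a count was over 4 times the IgG count.

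*Zfp36*, whose product directs the decay of mRNAs with AU-rich elements, had 41 Zfp322a and 10 IgG reads, a fold of 3.83 (1.89 to 8.57). *Zfp143*, an activator of small nuclear RNA genes and many other promoters, had 43 and 11 reads, a fold of 3.65 (1.85 to 7.85). These and the 2 genes before them were the members with the smallest adjusted p, at 9.78e-05 for *Zfp592*, 2.54e-04 for *Zfp746* and 3.85e-03 for *Zfp36* and *Zfp143* (exact test). *Zfp113* had 27 and 5 reads (5.04, 1.91 to 16.8), but at the TSS of its longest coding transcript it had too few reads to be tested (fold 1.40). *Zfp354c* had 29 and 6 reads (4.52, 1.84 to 13.3).

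Of the other 6 of the 12 called members with the highest lower bounds, *Zfp551* had 19 Zfp322a and 3 IgG reads, a fold of 5.92 with an interval from 1.74 to 31.2. *Zfp275* on chromosome X had the same counts, but chromosome X as a whole had a Zfp322a to IgG ratio of 1.32 after scaling, and against the reads of its own chromosome its fold was 4.49. *Zfp574* had 35 and 9 reads, *Zfp518b* 23 and 5, *Zfp689* 35 and 10, and *Zfp41* 26 and 7, with folds between 3.27 and 4.30. All 12 were among the genes called with all mapped reads, with a window of 500 bp on each side, and with scaling by chromosome, but 8 of them were called with the window from -1000 to +100 bp, where *Zfp518b* and *Zfp689* were not called and *Zfp275* and *Zfp551* had too few reads.

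At the other end, *Zfp612* on chromosome 8 was the 1 member called for IgG, with 12 Zfp322a and 24 IgG reads, a fold of 0.467 (0.213 to 0.971), where the background share of IgG calls was 0.708% of promoters. Chromosome 8 as a whole had a ratio of 0.760, and against its own chromosome the fold of *Zfp612* was 0.614. The highest IgG counts at member promoters were at *Zfp319* with 38 IgG and 46 Zfp322a reads, *Zfp687* with 26 and 46, *Zfp866* with 26 and 27, *Zfp1* with 25 and 32, and *Zfp612*. All but *Zfp687* lie on chromosome 8, and none of these 5 promoters was called for Zfp322a. Of the 20 tested members on chromosome 8, none was called for Zfp322a, and their summed fold was 1.01 (0.863 to 1.18). Without the members on chromosomes 8 and X, 46 of 259 tested members (17.8%) were called. The part of the chromosome ratios in the member folds beyond these values was not tested.

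Putative binding sites were also read from peak heights, with each read extended to 300 bp, a Zfp322a height of at least 9 and at least 3 times the IgG height. A total of 29 members (7.99%) had such a site in the promoter window, against 5.55% of all coding genes. No member, and 11 coding genes, had a site with the libraries exchanged. The heights at the 29 sites reached 26 with a median of 13, and 24 of the 29 summits lay downstream of the TSS, at a median of 120 bp. Called promoters made up 25 of the 29. The other 4 were *Zfp532*, *Zfp770*, *Zfp828* and *Zfp84*, named here after their values were seen, and *Zfp828* was the highest of them, with a height of 17 against 5 and 27 against 16 reads in the window. Among the 754 distinct regions deposited for Zfp322a, 1 or more fell in the promoter window of 15 members (4.13%), against 3.07% of all coding genes, and 12 of the 15 were called promoters. The list of deposited regions is far shorter than the study's own tally of binding sites, so members without one may still hold such a site.

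Called members had promoters rich in CpG. Their median was 50 CpG per kb of the window, against 32.5 for the members tested and not called. In windows with under 20 CpG per kb 1 of 47 tested members was called (2.13%), from 20 to 40 it was 14 of 136 (10.3%), from 40 to 60 it was 19 of 56 (33.9%), and with 60 or more it was 13 of 46 (28.3%). In the other coding genes the shares in the same classes were 4.40%, 14%, 20% and 19.6%. The exact binomial interval for the members from 40 to 60 CpG per kb ran from 21.8% to 47.8%. In the other 3 classes the interval of the members held the share of the other genes. These intervals treat each promoter as an independent draw, although some neighbouring members have overlapping windows and each antibody has 1 library. The reads of both libraries rose with CpG density. Across the 363 members its Spearman correlation was 0.71 with Zfp322a reads and 0.60 with IgG reads. Over the 285 tested members it was 0.26 with the log2 fold. Since a call needs enough reads, the shares called also depend on depth. Median Zfp322a and IgG reads of the members were 4 and 4 under 20 CpG per kb and 23 and 13 from 40 to 60. The summed folds of the members were 1.17, 1.36, 1.72 and 1.69 from the sparsest to the densest class. The part of depth in the shares called, here and in the groups below, was not tested.

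**Figure D3:**
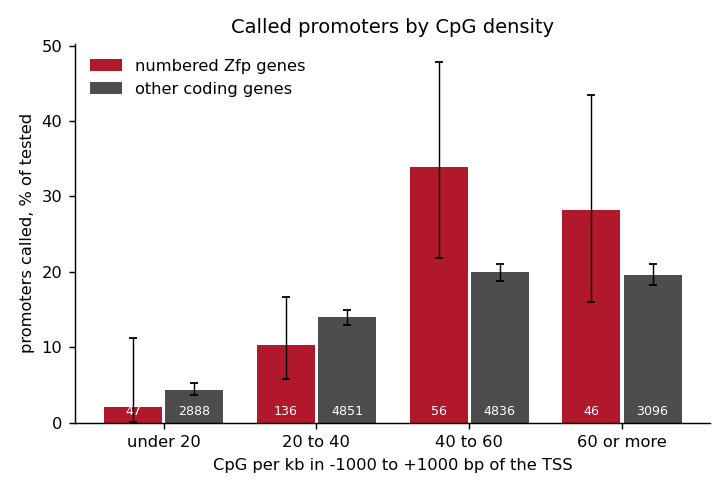
Promoters called higher in the Zfp322a library, as a percentage of the promoters tested (vertical axis), by CpG per kb in -1000 to +1000 bp of the TSS (horizontal axis), for numbered Zfp genes (red) and other coding genes (grey). Error bars are exact 95% binomial intervals that treat each promoter as an independent draw. The number in each bar is the number tested, and the members lie at 2.13%, 10.3%, 33.9% and 28.3%.

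Of the members with the KRAB pattern 12 of 115 tested were called (10.4%), and of those without it 35 of 170 (20.6%), beside 15.2% of all coding genes tested. The median Zfp322a and IgG reads were 12 and 8 with the pattern and 14 and 9 without it, and the summed folds were 1.35 (1.25 to 1.45) and 1.54 (1.46 to 1.63). Their promoters also differed in CpG density, with medians of 23.5 and 37.7 per kb. Within the class from 20 to 40 CpG per kb, 5 of 74 KRAB members (6.76%) and 9 of 62 others (14.5%) were called. From 40 to 60 it was 5 of 12 (41.7%) and 14 of 44 (31.8%). Under 20 it was 1 of 28 and 0 of 19, and with 60 or more 1 of 1 and 12 of 45. The shares called thus did not differ in the same direction in all classes, but where they were reversed few KRAB members were called. The summed folds with and without the pattern were 1.25 and 1.07 under 20, and 1.32 and 1.40 from 20 to 40. From 40 to 60 they were 1.55 (1.28 to 1.88) and 1.78 (1.60 to 1.97). The densest class holds 1 member with the pattern, so it allows no comparison. By number of fingers, the shares called were 12 of 54 members (22.2%) with 1 to 5 fingers, 19 of 109 (17.4%) with 6 to 11 and 13 of 111 (11.7%) with 12 or more. The part of CpG density in these differences was not tested beyond the classes given.

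In clusters 11 of 128 tested members were called (8.59%), and outside clusters 36 of 157 (22.9%), beside 15.2% of all coding genes tested. The summed folds were 1.34 (1.25 to 1.43) and 1.58 (1.49 to 1.67), and the median CpG densities 25 and 36.2 per kb. Most clusters had no called member. In the cluster of 21 on chromosome 13 none of the 13 tested members was called, with a mean of 7.81 Zfp322a and 5.86 IgG reads a promoter. The same held for the chromosome 17 clusters of 15 and 13 members, where 7 and 9 could be tested.

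The cluster between 47780866 and 48036592 on chromosome 6 was unlike these by its counts, with 4 of its 7 members called and a summed fold of 2.15. *Zfp746* had the highest count there, as given above. *Zfp777* had 23 Zfp322a and 6 IgG reads, *Zfp282* 23 and 7, and *Zfp956* 24 and 8, folds of 3.58, 3.07 and 2.80, and each of the 4 also had a site by height. In the same cluster *Zfp398* had 32 and 18 reads (fold 1.66, interval 0.904 to 3.14), *Zfp212* 20 and 13 (1.44, 0.680 to 3.14) and *Zfp786* 13 and 18 (0.675, 0.304 to 1.46), so its neighbouring promoters did not all have an excess. This cluster was picked out after its values were seen. By chromosome, 9 of 17 tested members were called on chromosome 5 and 6 of 16 on chromosome 6, against 15.2% of all coding genes tested. The share of all coding genes on these chromosomes alone was not counted. The library ratios there were 1.04 and 0.999, and 4 of the calls on chromosome 6 are those of this cluster. Shares were higher on chromosomes 12 and 16, with 2 of 3 and 3 of 5 tested members called. The library ratios of these chromosomes were 0.859 and 1.12, and with scaling by chromosome the call of *Zfp148* on chromosome 16 was lost. Of the calls on chromosome 5, 2 are the overlapping windows of the *Zfp664* entries.

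A total of 22 members had a head-to-head neighbour at the promoter, and 6 of the 18 tested were called (33.3%), against 25% of other coding genes with such a neighbour. These were *Zfp143*, *Zfp146*, *Zfp511*, *Zfp668* and both entries of *Zfp664*, whose windows overlap. By height, 0 of the 22 members had a site, against 11.7% of the other coding genes with such a neighbour. The summed folds were 1.55 (1.33 to 1.82) and 1.64 (1.61 to 1.67). The windows of the called members hold the promoter of the neighbour too, and the reads cannot be told apart. This neighbour is *Tubgcp2* in the case of *Zfp511* and *Zfp646*, itself a member, in the case of *Zfp668*.

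A list of members with known roles in ES cells, silencing or early embryos held 28 gene entries. Of these, 24 were tested and 6 called (25%, against 15.2% of all promoters tested). The list was chosen with earlier results of these data known, so its share is a description and not independent of them. Among the promoter-binding factors, *Zfp143* was called as above, and *Zfp148*, which binds GC boxes, had 25 Zfp322a and 10 IgG reads (fold 2.34, interval 1.08 to 5.45). *Zfp281*, a regulator of *Nanog*, had 21 and 14 reads (1.40, 0.680 to 2.98), and *Zfp296*, a partner of reprogramming factors, had the same counts. Of *Zfp644*, whose product works with the histone methyltransferases G9a and GLP, 28 and 11 reads were found (2.38, 1.15 to 5.29), and of *Zfp706*, a small protein of the exit from pluripotency, 28 and 13 (2.01, 1.01 to 4.23). Of these calls, that of *Zfp148* was lost with both other windows and with chromosome scaling (fold 1.31 from -1000 to +100 bp), that of *Zfp706* with both other windows, and that of *Zfp644* from -1000 to +100 bp.

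Among the genes of imprinting and silencing, *Zfp568* is known as a repressor of an *Igf2* transcript. It had 29 Zfp322a and 11 IgG reads (fold 2.46, interval 1.19 to 5.46), and with the window of 500 bp it was not called (1.96). Of the members named in this paragraph *Zfp568* was the 1 called, and *Zfp644*, given above, was called too. *Zfp57*, which keeps imprints methylated, had 4 and 5 reads and could not be tested, and *Zfp445*, also known for imprinting, had 6 and 4. *Zfp809*, which silences retroviral sequences, had 25 and 15 reads (1.56, 0.789 to 3.18). The retroviral repressors *Zfp932* and *Zfp708* had few reads, 6 and 4 at *Zfp932* and, at the entries of *Zfp708*, 5 and 0 and 6 and 2. At this depth a 2-fold difference was not detectable at promoters with so few reads.

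In the rest of the list, *Zfp36* was called, and *Zfp335*, a component of an H3K4 methyltransferase complex, had 37 and 19 reads with a fold of 1.82 (1.02 to 3.35), just under the fold of 2. *Zfp219* with 16 and 6 reads and *Zfp91* with 14 and 6 had folds of 2.49 and 2.18 with lower bounds of 0.926 and 0.787. *Zfp207*, *Zfp217*, *Zfp423*, *Zfp462*, *Zfp521*, *Zfp553*, *Zfp597*, *Zfp703*, *Zfp110* and *Zfp819* were not called, with between 5 and 22 Zfp322a reads. Their folds ran from 0.817 at *Zfp423*, with 7 and 8 reads, to 2.34 at *Zfp521*, which had 5 and 2 reads and was not tested.

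At its own promoter, on chromosome 13 with the TSS at 23461077, *Zfp322a* had 14 Zfp322a and 8 IgG reads. The fold was 1.63 (interval 0.640 to 4.50), the heights were 8 and 3, and the promoter was not called. The interval holds both no difference and a 4-fold excess, so the depth does not decide between them.

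The cofactors of KRAB silencing, a list outside the members that was also chosen with earlier results of these data known, held 26 gene entries. Of the 23 tested, 10 were called (43.5%, against 15.2% of all promoters tested), with a median log2 fold of 0.97 against 0.43 over all coding genes tested. Among those called were *Trim28* with 39 Zfp322a and 16 IgG reads (fold 2.28, interval 1.24 to 4.36), *Smarcad1* with 33 and 11 (2.80, 1.38 to 6.15), *Cbx5*, *Atrx*, *Daxx*, *Ehmt1*, *Mphosph8*, *Suv39h2* and *Uhrf1*. *Setdb1* had 4 reads in each library and was not tested, and *Chd4* had 12 and 14, *Hdac1* 20 and 17 and *Hdac2* 16 and 15, with folds between 0.801 and 1.10. The promoters on this list had a median of 59.5 CpG per kb, between the medians of the 2 densest classes above, in which 20% and 19.6% of the other coding genes were called. Of other zinc-finger families, 9 of 35 tested Zbtb genes, 3 of 16 Zscan and Zkscan genes and 2 of 22 Klf and Sp genes were called, shares of 25.7%, 18.8% and 9.09%. The difference between these families and the members was not tested.

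Short motifs were searched on both strands from 250 bases before to 49 after the TSS, and a match is a description and not a bound site. CCGGAAGT, the letters of ETS factors, was in 9.64% of member promoters against 4.83% of all coding genes, GCATGCGC, those of Nrf1, in 6.34% against 3.36%, and AAGATGGC, those of Yy1, in 5.23% against 3.28%. ACTACAAT, part of the sequence that Zfp143 binds, was in 10 members (2.75%), against 0.787% of coding genes. Motif 1 was in 57 members (15.7%) against 17.8%, and TCTCGCGA in 1.38% against 1.34%. Of the tested members with motif 1, 9 of 50 were called (18.0%, against 13.1% of all coding genes with it), and of those without it 38 of 235 (16.2%). Of the tested members with CCGGAAGT, 7 of 33 were called (21.2%), against 19.9% of all coding genes with it. With GCATGCGC it was 1 of 21 (4.76%) against 22%, with AAGATGGC 1 of 18 (5.56%) against 19.8%, with ACTACAAT 0 of 9 against 16.3%, and with TCTCGCGA 1 of 5 against 22.7%. Motif 1 and the other letters may overlap in a promoter, and their counts are then not independent.

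Over the zinc-finger exons the excess was smaller than at the promoters. In the coding part of the last coding exon of 289 members, 416 kb in all, 1721 Zfp322a and 1311 IgG reads were counted, a fold of 1.23 (interval 1.14 to 1.32). In the last coding exons of the other coding genes it was 1.16 (1.14 to 1.18). The levels were 0.997 and 0.813 RPKM (reads per kb of exon and 1000000 reads of the library), beside 0.960 and 0.826 in those genes, but without the exons of *Zfp322a* and *Zfp553*, described below, the members' levels were 0.795 and 0.676. Only 81 of the exons could be tested, and 4 were called higher in the Zfp322a library (4.94%), where the background was 6.55% of the last exons tested. One was called for IgG, with a background of 1.30%, namely *Zfp334* with 6 Zfp322a and 19 IgG reads. Of the reads in these exons, 8.31% in the Zfp322a and 10.4% in the IgG library were under the mapping quality of 25. In the other coding genes it was 19.6% and 20.4%, and in their last exons of 1 kb or more 14.2% and 14.8%. The exons of members with the KRAB pattern had 11.6% and 14.6%. Without *Zfp322a* and *Zfp553* the members' shares were higher, but still below those of the other coding genes. Summed over the members, the exons thus held no excess of such reads. Single exons differed, and that of *Zfp600* held 8 such reads and 0 of higher quality in each library.

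The 4 called exons were those of *Zfp324*, *Zfp275*, *Zfp786* and *Zfp467*. *Zfp324* on chromosome 7 had 56 Zfp322a and 16 IgG reads, a fold of 3.27 (1.85 to 6.11, adjusted p = 0.00746 in the exact test over all last exons), and the heights were 21 and 6. It was the 1 zinc-finger exon with a deposited Zfp322a region over it. *Zfp275* had 14 and 1 reads, *Zfp786* 24 and 9, and *Zfp467* 21 and 7, each with an adjusted p over 0.05. The exons of members with the KRAB pattern held 0.610 and 0.511 RPKM, and those without it 1.48 and 1.19.

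The reads in 2 zinc-finger exons stood apart from the rest in both libraries. That of *Zfp322a*, chr13:23448210-23449439 of mm9, holds the whole coding sequence of 1230 bases without the stop codon and had 172 Zfp322a and 115 IgG reads, while the 500 bp before it had 1 and 1 and the 500 bp after it 0 and 0. The exon of *Zfp553*, chr7:134378789-134380561, of 1773 bases, had 186 and 113 reads, with 3 and 0 in the 500 bp before it and 2 and 1 in the 500 bp after. In RPKM this is 33.7 and 24.1 for *Zfp322a* and 25.3 and 16.4 for *Zfp553*, and by the reads per kb of both libraries together the next highest exons were *Zfp324* with 9.49 and 2.90 and *Zfp771* with 6.25 and 4.46. *Zfp524*, *Zfp647*, *Zfp707* and *Zfp865* completed the 8 highest by that sum, with 3.25 to 3.90 RPKM in the Zfp322a and 2.57 to 3.48 in the IgG library.

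The boundaries of these blocks of reads lay at the boundaries of the coding sequence. At *Zfp322a* the 5′ ends of the reads ran from base 38 to base 1198 of the exon in the Zfp322a library and from 8 to 1196 in the IgG library, and at *Zfp553* from 27 to 1773 and from 18 to 1753. The sequences at these boundaries are shown because the reads stop there. Each line runs 5′ to 3′ on the strand of the gene, with the coding sequence in capitals and the adjoining bases in lower case, from the stop codon on at the coding end.
*Zfp322a* coding start, mm9 chr13:23449400-23449459, minus strand: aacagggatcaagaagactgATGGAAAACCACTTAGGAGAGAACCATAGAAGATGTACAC
*Zfp322a* coding end, mm9 chr13:23448190-23448249, minus strand: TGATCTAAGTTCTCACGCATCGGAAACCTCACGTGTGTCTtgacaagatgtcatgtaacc
*Zfp553* coding start, mm9 chr7:134378769-134378828, plus strand: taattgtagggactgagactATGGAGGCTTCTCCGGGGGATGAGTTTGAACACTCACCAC
*Zfp553* coding end, mm9 chr7:134380522-134380581, plus strand: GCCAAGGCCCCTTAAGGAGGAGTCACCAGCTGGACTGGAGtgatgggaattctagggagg
Both strands held reads, with 64 of 172 Zfp322a and 56 of 115 IgG reads of *Zfp322a* on the forward strand and 95 of 186 and 54 of 113 of *Zfp553*.

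**Figure D4:**
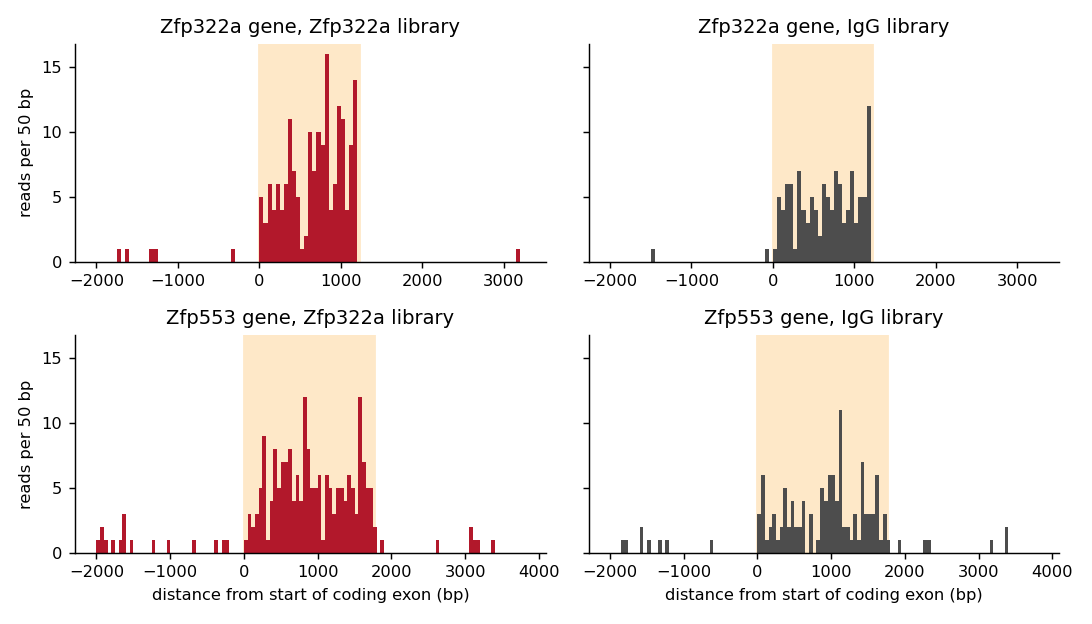
Reads per 50 bp (vertical axis) by distance in bp from the start of the coding exon (horizontal axis) at *Zfp322a* (top) and *Zfp553* (bottom), in the Zfp322a library (left) and the IgG library (right). The shaded span is the coding exon of 1230 or 1773 bases, and in all 4 panels the dense reads fill the shaded span and end at its edges.

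Since the IgG library held these blocks too, the fold between the libraries was small, 1.40 (interval 1.10 to 1.78) at *Zfp322a* and 1.54 (1.21 to 1.96) at *Zfp553*, and neither exon was called. Together they held 358 of the 1721 Zfp322a and 228 of the 1311 IgG reads of all zinc-finger exons. Without them the summed fold of the exons was 1.18 (1.08 to 1.27), and the level of the exons without the KRAB pattern was 1.03 and 0.888 RPKM. Among all last coding exons, blocks of at least 50 reads in both libraries together and over 10 times the density of their flanks were found at 3 other genes, *Patz1* with 50 Zfp322a and 94 IgG reads, *Lin28a* with 39 and 19 and *Prrt4* with 42 and 15. The promoter counts of *Zfp322a* and *Zfp553* are not touched by these reads, since their windows do not reach the exons. Whether the blocks come from chromosomal DNA or from copies of the coding sequence in the material was not tested, so the levels of these exons are read counts and not a measure of chromatin.

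**Figure D5:**
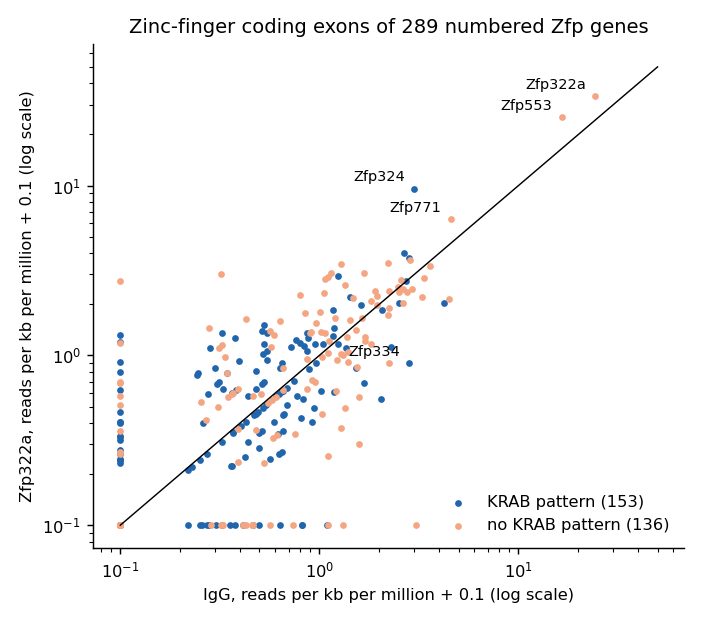
RPKM in the Zfp322a library (vertical axis) against the IgG library (horizontal axis) for the 289 zinc-finger exons, both on a log scale after adding 0.1, for members with the KRAB pattern (blue) and without it (orange). The line marks equal levels, and *Zfp322a* and *Zfp553* lie above all other exons in both libraries, near the line.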

How the data were processed

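ChIP-seq reads of E14 cells were sequenced on the Genome Analyzer IIx and mapped to mm9 by the authors. The submitters' processing notes name CASAVA 1.4, BWA and Partek 6.6 without roles. Each deposited line is a mapped read and the aligner's score for its mapping quality, which is low where a read fits several places. The authors also deposited the reads in numbered regions of their peak detection, which give positions and no height. Whether duplicates were removed is not given in the sources used here.

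Reads of mapping quality 25 or more were counted with Python 3.11.15, numpy 2.4.6, pandas 2.3.3 and scipy 1.17.1, and sequences were read with pysam 0.24.0 from the mm9 genome. The TSS is the most upstream one of a gene's coding transcripts in GENCODE, and fingers and KRAB were found by patterns in the translated sequence. Adjusted p-values come from the exact conditional binomial test, two-sided, over all promoters or last exons tested. Intervals are Clopper-Pearson, and those of folds cover counting error only. Calls and intervals were also run on simulated counts with counting error only, which is what the intervals assume. That run does not show how they behave with duplicate reads or with variation between libraries. With 1 library for each antibody, no test compares conditions.

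Members and lists were chosen with earlier results of these data known. Named were the 12 called promoters with the highest lower bounds, the 5 with the most IgG reads, those called for IgG, the 8 densest exons, called exons, *Zfp322a*, and the ES cell list. Alternatives were other windows, TSSs, scalings, read filters, minimums and folds.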

Additional observations from a re-analysis of the deposited data

Results flagged for a closer look

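Reads with a mapping quality under 25, which the comparisons above leave out, were looked at in members with at least 10 such reads. At 3 member promoters the lower bound of their fold was above 1. How many member promoters had that many such reads, and what share of all coding genes had such a bound, was not counted. The intervals are not adjusted for the number of promoters looked at, so the 3 are a description only. At *Zfp955a* 18 Zfp322a and 4 IgG reads were found, a fold of 4.19 (interval 1.38 to 17.0) per read of this kind, at *Zfp345* 17 and 5, a fold of 3.17 (1.12 to 11), and at *Zfp959* 20 and 7, a fold of 2.66 (1.08 to 7.45). In the reads above that quality the same windows had 0 and 0, 5 and 2, and 7 and 2 reads. *Zfp345* and *Zfp959* are also among the 15 members with a deposited Zfp322a region. These reads fit several places of the genome, so which copy they come from cannot be told apart.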

How the results depend on the processing

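The count of 47 called member promoters lay between 43 and 56 with all mapped reads, the window of 500 bp, the TSS of the longest coding transcript, chromosome scaling, moved reads, a minimum of 20 reads or none, and without chromosomes 8 and X. It was 25 with the window from -1000 to +100 bp, 18 with a fold of at least 3 and 11 by adjusted p. Of the 47 genes, 47 were called with all mapped reads, 41 with chromosome scaling, 32 with the window of 500 bp and 17 with that from -1000 to +100 bp. Sites by height were 8 with a height fold of at least 5, against 29. The summed promoter fold was 1.58 with the window of 500 bp, and between 1.44 and 1.52 otherwise. Called exons, 4 in number, were 9 over the whole exon, 8 with moved reads, 2 with a fold of at least 3 and 1 by adjusted p. The summed exon fold stayed between 1.17 and 1.24. No named promoter that was called changed direction. Leaving out chromosomes 8 and X or the exons of *Zfp322a* and *Zfp553* was chosen after seeing the data. No paired analysis was possible because each antibody has 1 library, and for the same reason no library could be left out. Member promoters had at most 51 Zfp322a reads, which limits what can be seen, and at *Zfp322a* the interval spans 0.640 to 4.50.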
